A study of Mus musculus with 8 samples.

Results

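The genes described here are the mouse MHC class II genes and their transcriptional coactivator. They are the classical chain genes H2-Aa, H2-Ab1 and H2-Eb1, the invariant chain gene Cd74, the coactivator gene Ciita, and the peptide-exchange genes H2-DMa, H2-DMb1, H2-DMb2, H2-Oa and H2-Ob. They were chosen by name as the members of one antigen presentation pathway, by a rule that uses no measured value but with earlier results of these data known, and make up 10 of the 23469 genes in the deposited table. Levels were given as TPM, the share of a library's transcripts that belong to a gene after correction for transcript length. Of the members, 10 of 10 reached an average of 1 TPM across the 8 libraries and were among the 8801 genes tested, and their lowest group mean was 3.01 TPM, that of H2-Oa in AeMM.

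The libraries were bulk Smart-seq2 libraries of macrophages sorted from malignant ascites, 4 of AeEM, labelled as macrophages of embryonic origin, and 4 of AeMM, labelled as derived from monocytes. Both groups came from Ms4a3Cre-RosaTdT mice (labelled Ms4a3TdT) on a C57BL/6 background with no treatment, females that received ID8 cells, a mouse ovarian surface epithelial line, in the peritoneal cavity at 4 to 5 weeks of age and gave ascites 65 days later. The gate was the same apart from tdTomato: CD45+, DAPI-, Ly6G-, SiglecF-, Ly6C- and CD11b+ cells bearing the macrophage antigen encoded by Adgre1, without the reporter were AeEM, and those with it were AeMM. Ms4a3-driven Cre marks the descendants of granulocyte-monocyte progenitors, so AeEM were defined by the absence of a label, and no tumour-free animals are among these libraries. The 8 libraries came from 4 mice in 4 runs, so AeEM and AeMM libraries would have shared animals, but which library came from which animal was not given in the sources used here. The main fit is unpaired, and its p-values measure the spread left between these libraries after an adjustment in sets, described below.

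MHC class II molecules are pairs of an alpha and a beta chain that carry peptides from endosomes to the cell surface and show them to CD4+ T cells. The invariant chain Cd74 guides the new pair to endosomes and fills its groove, H2-DM exchanges the remnant of Cd74 for peptide, and H2-DO, the product of H2-Oa and H2-Ob, inhibits H2-DM, mainly in B cells and dendritic cells. Ciita binds no DNA itself and acts through the RFX complex and NF-Y, which occupy the X and Y boxes shared by class II promoters. Macrophages make class II at levels that depend on tissue and activation, and peritoneal macrophages range from low to high.

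Promoter stretches of 6 of these genes are shown because the X and Y boxes are where RFX and NF-Y, with Ciita, act on class II promoters. Promoter windows from RefSeq on GRCm38.p6, from 250 bases before to 50 bases after the gene start, matched 7 of the 10 members, and H2-Ab1, Cd74 and Ciita had no window. Each stretch below is 65 bases long, written 5′ to 3′ on the strand of the gene, with the core letters of the X box (AGCAAC or its shorter form GCAAC) and those of the Y box (ATTGG) in capitals where they occur. Both boxes are marked in 4 of the 6, and ATTGG alone in H2-DMb1 and H2-DMb2. The window of H2-DMa held GCAAC and ATTGG, but not in the joined arrangement described next, and is not printed. All 6 stretches lie before the RefSeq start of their window. By the GENCODE positions given for each gene below, those of H2-DMb1 and H2-DMb2 lie inside the gene. That of H2-Oa crosses its GENCODE start. The stretches lie at chr17:34305758-34305822 (H2-Eb1, plus strand), chr17:34287857-34287921 (H2-Aa, minus strand), chr17:34092286-34092350 (H2-Oa, plus), chr17:34238798-34238862 (H2-Ob, plus), chr17:34153080-34153144 (H2-DMb1, plus) and chr17:34145109-34145173 (H2-DMb2, plus).
H2-Eb1: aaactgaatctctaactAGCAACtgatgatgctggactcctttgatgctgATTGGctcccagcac
H2-Aa: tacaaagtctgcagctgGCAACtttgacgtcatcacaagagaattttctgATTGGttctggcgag
H2-Oa: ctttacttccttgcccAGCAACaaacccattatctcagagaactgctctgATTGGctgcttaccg
H2-Ob: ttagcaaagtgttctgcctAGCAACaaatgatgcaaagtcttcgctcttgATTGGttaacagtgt
H2-DMb1: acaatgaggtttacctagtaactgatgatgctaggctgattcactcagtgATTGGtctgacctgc
H2-DMb2: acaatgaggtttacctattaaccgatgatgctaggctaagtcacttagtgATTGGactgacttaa

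Both strands of every window were searched for the X box letters AGCAAC, for their shorter form GCAAC, whose matches include those of the longer form, and for the Y box letters ATTGG. A joined arrangement was counted where either X box form was followed on the same strand by the Y box letters with 10 to 35 bases between them. ATTGG was found in the windows of 7 of the 7 matched members and in 37.4% of all 32851 windows. The joined arrangement with AGCAAC was found in H2-Eb1, H2-Oa and H2-Ob and in 0.423% of all windows. With the shorter form it was also found in H2-Aa, and in 1.22% of all windows. In these 4 genes the letters were 25 to 28 bases apart. The DM beta genes held ATTGG without either joined form, which says only that those letters are not in these windows.

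Across the transcriptome, 110 genes passed the unpaired limma test at a Benjamini-Hochberg adjusted p under 0.05 as higher in AeEM, 1.25% of the genes tested, and 212 passed in either direction, 2.41%. Of the class II members, 6 of 10 were higher in AeEM and 0 were lower: H2-Aa, H2-Ab1, H2-Eb1, Cd74, Ciita and H2-DMb1. Judged from the values, the libraries had been adjusted before deposit in 3 sets, of which the first holds both replicate 1 libraries, the next both replicate 2 libraries and the last those of replicates 3 and 4, which brings the mean of a gene in each set to nearly the same level. Gene means differed by a median of 0.0041 to 0.0094 on the log2 scale between sets, against 0.210 between replicates 3 and 4. In a limma model that also fitted the 3 sets, called the set model here, 9 genes were higher in AeEM, 0.102% of those tested, and 2 of them were members, H2-Eb1 and Cd74. When limma instead paired equally numbered libraries (a replicate block), 1 of the 6 passed, H2-Eb1. The unpaired fit ignores that the spread between sets had been removed, so its p-values and intervals can be too small. The set model had a larger standard error for every member, 0.085 against 0.070 for H2-Aa. The difference (AeEM minus AeMM on the log2(TPM + 1) scale, used throughout) was above 0 for 10 of 10 members and 48.8% of all tested genes, with a median of 0.64 over the members and -0.0064 over all tested genes. In 7 of 10 members all 4 AeEM libraries lay above all 4 AeMM libraries, which held for 5.72% of tested genes; for H2-DMb2 the margin was 0.0031.

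**Figure D1:**
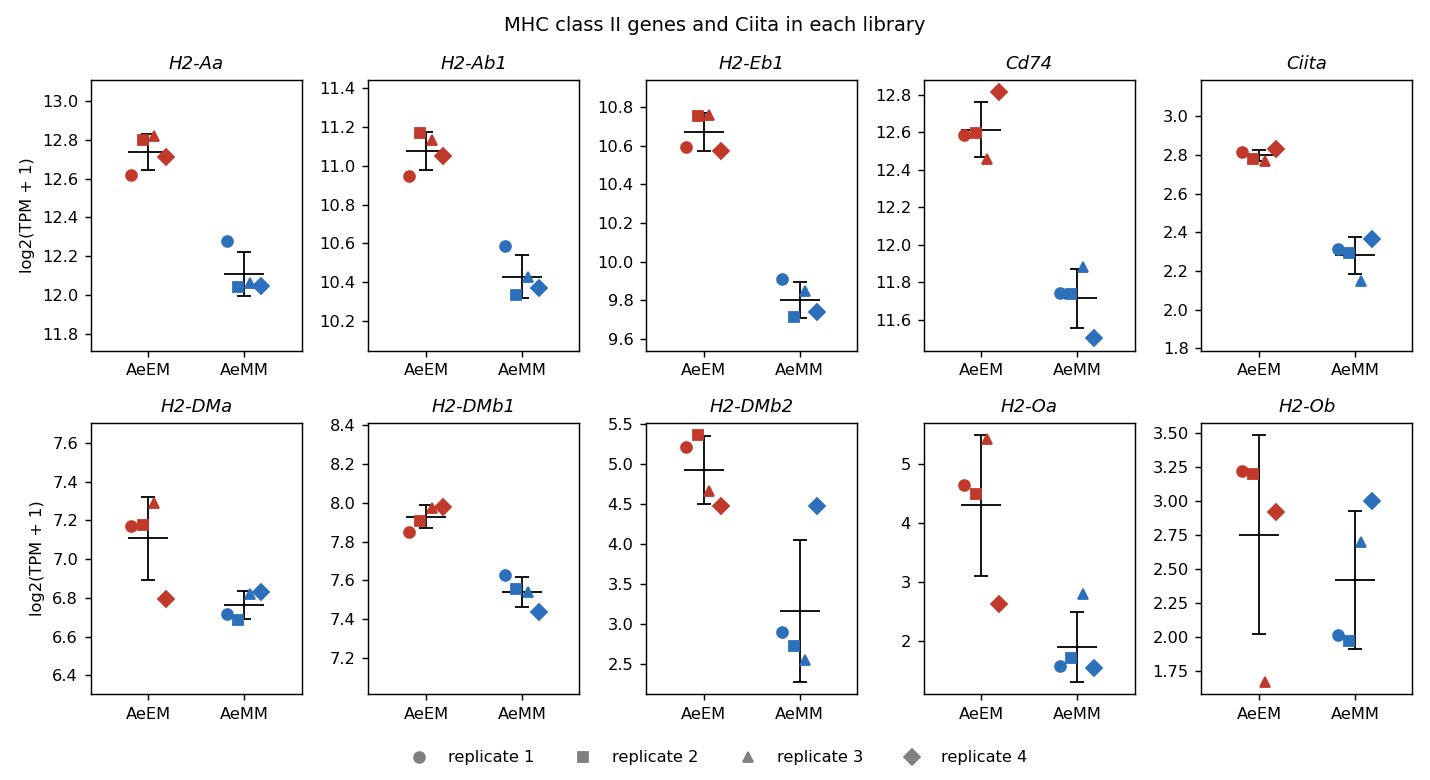
Level of each member, log2(TPM + 1) on the vertical axis with its own range in each panel, in the 4 AeEM and 4 AeMM libraries; points are libraries with a marker per replicate number, and bars are the mean and SD. The groups are apart in the classical chain genes, Cd74, Ciita and H2-DMb1, touch in H2-DMb2 and overlap in H2-DMa, H2-Oa and H2-Ob.

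The 3 classical chain genes were abundant in both macrophage groups and higher in AeEM. H2-Aa encodes the alpha chain of I-A (Ensembl ENSMUSG00000036594, mm10 chr17:34282744-34287823, minus strand). Its level, as log2(TPM + 1), was 12.62, 12.80, 12.82 and 12.71 in AeEM replicates 1 to 4 and 12.28, 12.04, 12.06 and 12.05 in AeMM replicates 1 to 4. The groups did not overlap, and AeMM replicate 1 stood above the other AeMM libraries. The means were 12.74 ± 0.092 and 12.11 ± 0.115 (SD, n = 4 each), 6842 and 4422 as mean TPM, a ratio of 1.55. The difference was 0.63 (SE 0.070, 95% interval 0.47 to 0.79), with a limma adjusted p of 0.00343, and 0.0501 in the set model. Quantile normalization, which forces all libraries onto the same distribution, reduced it to 0.36 (limma adjusted p = 0.0403).

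H2-Ab1 encodes the beta chain that pairs with H2-Aa (chr17:34257689-34269419, plus strand). Its levels were 10.95, 11.17, 11.13 and 11.05 in AeEM and 10.58, 10.33, 10.43 and 10.37 in AeMM. The order of the libraries within each group was almost that of H2-Aa, with AeMM replicate 1 again the highest of its group and AeEM replicate 1 the lowest of its own. Means were 11.08 ± 0.098 and 10.43 ± 0.111 (SD, n = 4 each), or 2161 and 1379 TPM, a ratio of 1.57. The difference was 0.65 (SE 0.072, interval 0.49 to 0.81; limma adjusted p = 0.00343, and 0.0501 in the set model).

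H2-Eb1 encodes the beta chain of I-E (chr17:34305867-34316674, plus strand). C57BL/6 mice carry an H2-b haplotype with a defective Ea gene, so in this strain the transcript is made while the I-E molecule is not shown on the surface. AeEM libraries held 10.59, 10.75, 10.76 and 10.57, and AeMM libraries held 9.91, 9.71, 9.85 and 9.74. The lowest AeEM library was well above the highest AeMM library. Means were 10.67 ± 0.10 and 9.80 ± 0.093 (SD, n = 4 each), or 1631 and 894 TPM, a ratio of 1.82. With a difference of 0.87 (SE 0.068, interval 0.71 to 1.02), it had the smallest adjusted p of the members in the unpaired limma fit, 0.00123, and passed in the set model (0.0288) and with the replicate number as a block (0.0442). The neighbouring beta chain locus H2-Eb2 was under the expression filter, with at most 0.740 TPM in any library.

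Cd74, the invariant chain, was higher in AeEM by a similar amount (ENSMUSG00000024610, chr18:60803848-60812652, plus strand). AeEM libraries held 12.59, 12.60, 12.46 and 12.82, and AeMM libraries held 11.74, 11.74, 11.88 and 11.50. Replicate 4 was the highest AeEM library and the lowest AeMM library, and the groups did not overlap. Means were 12.62 ± 0.148 and 11.71 ± 0.158 (SD, n = 4 each), or 6299 and 3374 TPM, a ratio of 1.87. The difference of 0.90 (SE 0.095, interval 0.68 to 1.12) had a limma adjusted p of 0.00294, 0.0385 in the set model and 0.0696 with the replicate block. Together, Cd74 and the 3 classical genes held 96.7 to 97.8% of the TPM of the 10 members in each library. All 10 members took 1.71 to 1.86% of the total TPM in AeEM and 0.991 to 1.16% in AeMM. In bulk libraries, more RNA per cell and a larger share of cells that express the gene cannot be told apart.

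Ciita, the coactivator on which class II transcription depends, was present at a few TPM in every library (ENSMUSG00000022504, chr16:10480059-10528418, plus strand). Its levels were 2.82, 2.78, 2.77 and 2.83 in AeEM and 2.31, 2.29, 2.15 and 2.37 in AeMM. Each AeEM library was above each AeMM library, and the AeEM libraries were close to each other. Means were 2.80 ± 0.030 and 2.28 ± 0.094 (SD, n = 4 each), or 5.95 and 3.87 TPM, a ratio of 1.54. The difference of 0.52 (SE 0.093, interval 0.31 to 0.73) passed in the unpaired limma fit (adjusted p = 0.0259) and did not in the set model (0.305). In the unpaired fit the call was also lost when AeEM replicate 1, 2 or 4 or AeMM replicate 1 or 2 was left out, with adjusted p-values up to 0.106. With a pseudocount of 5 in place of 1, which shrinks the log differences of low genes, its difference was 0.31 and passed (limma adjusted p = 0.0288). In the annotation, 25888 bases of the Ciita locus are overlapped by Dexi on the opposite strand, which measured 0.32 to 0.74 on the log2 scale. The counting strand was not given in the sources used here, so reads of the 2 genes cannot be told apart where they overlap.

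**Figure D2:**
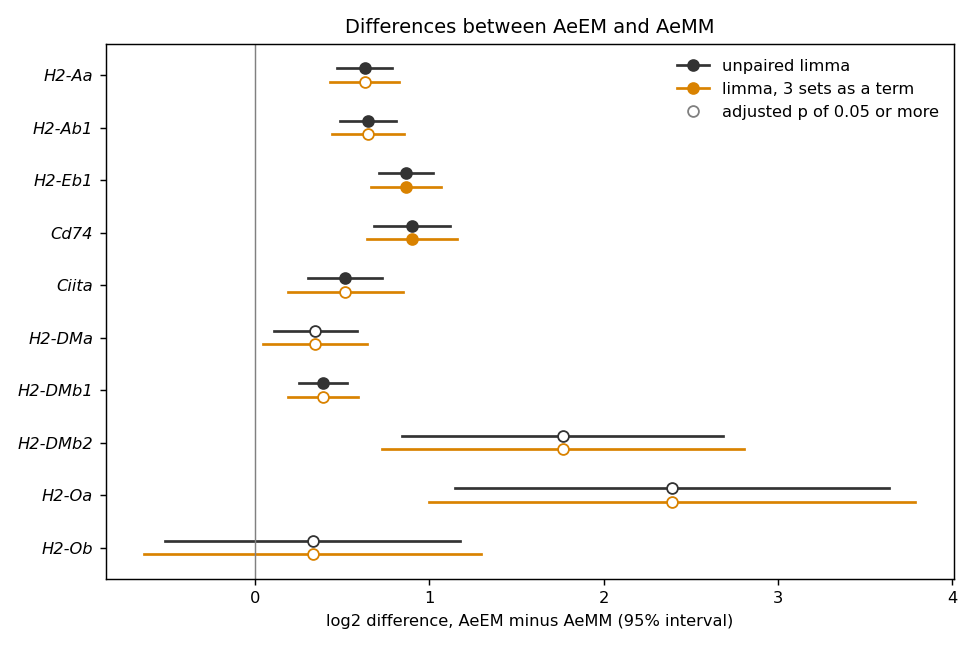
Difference in log2(TPM + 1), AeEM minus AeMM, for each member with its 95% interval, from the unpaired limma fit and the set model. Filled points passed an adjusted p of 0.05; 6 members passed in the unpaired fit, and H2-Eb1 and Cd74 passed in both.

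The genes of the H2-DM peptide exchanger differed among themselves. H2-DMb1, one of its beta chains (chr17:34153072-34160230, plus strand), measured 7.85, 7.91, 7.98 and 7.98 in AeEM and 7.63, 7.55, 7.54 and 7.44 in AeMM. The groups were apart and narrow, at 7.93 ± 0.061 and 7.54 ± 0.079 (SD, n = 4 each), or 243 and 185 TPM, a ratio of 1.31. The difference of 0.39 (SE 0.062, interval 0.25 to 0.53) passed in the unpaired limma fit (adjusted p = 0.0156) and did not in the set model (0.202). It also missed the threshold when AeEM replicate 2 or AeMM replicate 2 was left out (0.0608 and 0.0614).

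H2-DMa, the alpha chain (chr17:34119541-34139101, plus strand), measured 7.17, 7.18, 7.29 and 6.79 in AeEM and 6.72, 6.68, 6.82 and 6.83 in AeMM. AeEM replicate 4 lay within the AeMM libraries and the other 3 AeEM libraries lay above them. The difference of 0.35 (SE 0.106, interval 0.11 to 0.59; 138 and 108 TPM) did not pass in limma (adjusted p = 0.131), and without AeEM replicate 4 it was 0.45 (0.0242). H2-DMa shares 3094 annotated bases with Brd2 on the opposite strand, and Brd2 measured 4.70 to 5.01 with a difference of -0.0018.

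H2-DMb2, the other beta chain (chr17:34143307-34151555, plus strand), had one of the larger differences and one of the widest spreads. AeEM libraries held 5.21, 5.36, 4.66 and 4.47, and AeMM libraries held 2.90, 2.72, 2.55 and 4.47. AeMM replicate 4 was level with AeEM replicate 4, 0.0031 below it, while the other 3 AeMM libraries were far lower. Means were 4.92 ± 0.43 and 3.16 ± 0.88 (SD, n = 4 each), or 30.3 and 9.50 TPM, and the difference of 1.76 (SE 0.41, interval 0.84 to 2.69) did not pass in limma (adjusted p = 0.0618). Without AeMM replicate 4 it was 2.20 and passed (0.00603), and with the filter at 5 TPM in place of 1 TPM it passed at 0.0382. That filter tested fewer genes, 4802, and left the difference at 1.76.

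The DM beta genes are near copies, which limits how far their levels can be separated. Their longest protein-coding transcripts, 1404 bases for H2-DMb1 and 1483 for H2-DMb2, aligned over 1058 bases with 95.5% identity, and the longest shared run was 221 bases. Of the 1334 stretches of 150 bases in the H2-DMb2 transcript, 72 were also in H2-DMb1, and of its 1434 stretches of 50 bases, 361 were. H2-DMb1 was the more abundant gene in every library. In log2(TPM + 1), H2-DMb2 was 3.01 ± 0.48 below H2-DMb1 in AeEM and 4.38 ± 0.95 below it in AeMM (SD, n = 4 each).

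The H2-DO genes, which encode the inhibitor of H2-DM, were low and variable. H2-Oa, its alpha chain (chr17:34092340-34095234, plus strand), measured 4.64, 4.49, 5.43 and 2.62 in AeEM and 1.58, 1.71, 2.79 and 1.53 in AeMM. The groups overlapped because AeEM replicate 4 was below AeMM replicate 3, and each of those libraries stood apart from the rest of its group. Means were 4.30 ± 1.19 and 1.90 ± 0.59 (SD, n = 4 each), or 23.2 and 3.01 TPM. The difference of 2.39 was the largest of the members and the least precise (SE 0.55, interval 1.15 to 3.64), and it did not pass in limma (adjusted p = 0.0609, and 0.262 in the set model). Without AeEM replicate 4 it was 2.95 and passed (0.0114), and with the filter at 5 TPM it passed at 0.0378. That filter left the difference at 2.39 and tested 4802 genes. The AeMM mean of H2-Oa, 3.01 TPM, was under 5 TPM, so the gene met that filter only through AeEM. The pass at 0.0378 therefore adds no support.

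H2-Ob, the beta chain of H2-DO (chr17:34238903-34254414, plus strand), was low in both groups. Its levels were 3.22, 3.20, 1.68 and 2.92 in AeEM and 2.01, 1.98, 2.7 and 3.0 in AeMM. AeEM replicate 3, the library with the highest H2-Oa, had the lowest H2-Ob of all 8. The groups overlapped over most of their range, at 2.75 ± 0.73 and 2.42 ± 0.51 (SD, n = 4 each), or 6.32 and 4.62 TPM, and the difference of 0.33 had an interval of -0.52 to 1.18 (limma adjusted p = 0.714). That interval includes differences as large as those of the classical genes. Leaving out 1 library moved it from 0.18 (without AeEM replicate 1) to 0.69 (without AeEM replicate 3).

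A two-sided exact permutation test over the 70 assignments of 8 libraries to the groups, where the smallest p that 4 against 4 can give is 0.0286, gave that value for 7 members: the 3 classical genes, Cd74, Ciita, H2-DMb1 and H2-DMb2. Groups that do not overlap always give this smallest p, so it restates their lack of overlap and adds no support. All 4 AeEM libraries lay above all 4 AeMM libraries in 5.72% of tested genes. The same exact test gave 0.0857 for H2-DMa, 0.0571 for H2-Oa and 0.486 for H2-Ob. This test exchanges libraries freely across the 3 sets. With exchanges within the sets only, added after seeing the data, there are 24 assignments and the exact test cannot go below 0.0833, so it cannot pass 0.05. The same 7 members were at that smallest value, which their lack of overlap also fixes. H2-Oa was at 0.167, H2-DMa at 0.25 and H2-Ob at 0.583.

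**Figure D3:**
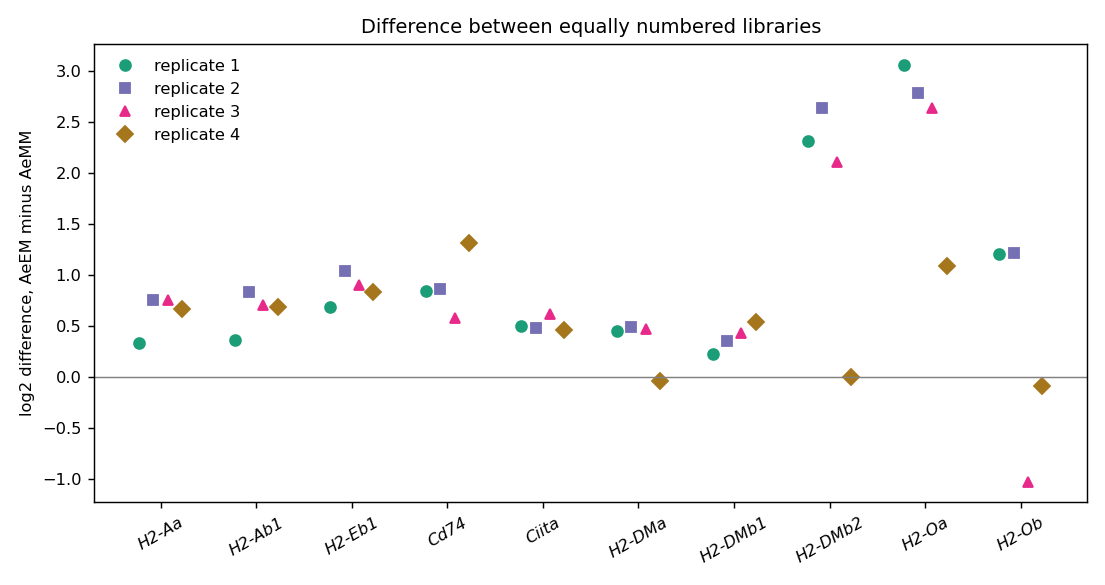
Difference in log2(TPM + 1) between the AeEM and the AeMM library of the same replicate number, 1 point per number and member. Differences are above 0 at all 4 numbers for the classical genes, Cd74, Ciita, H2-DMb1 and H2-Oa, near 0 at number 4 for H2-DMa and H2-DMb2, and on both sides of 0 for H2-Ob. Members whose groups do not overlap can only have differences above 0.

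Within the sets of libraries that had been adjusted together, the classical genes, Cd74, Ciita and H2-DMb1 were higher in AeEM each time. Their groups did not overlap, so this direction was fixed in advance and adds no support. The same holds for H2-DMb2, whose groups were apart by 0.0031. H2-DMa and H2-Oa, whose groups overlapped, were also higher in AeEM in each set. For H2-Aa the difference was 0.34 between the replicate 1 libraries, 0.76 between those of replicate 2 and 0.71 in the set of replicates 3 and 4. For H2-Eb1 it was 0.68, 1.04 and 0.87. The differences between the replicate 1 libraries were thus the smallest for these genes, while those of Cd74 (0.85, 0.86 and 0.95) and Ciita (0.50, 0.48 and 0.54) lay closer together. For H2-Oa they were 3.06, 2.78 and 1.87, and for H2-DMb2 2.31, 2.63 and 1.06. H2-Ob was higher in AeEM in the sets of replicates 1 and 2, by 1.2 and 1.22, and lower in that of replicates 3 and 4, by a difference of -0.55. Each of the first 2 sets holds 1 library per group, so these values have no replicate check.

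In replicates 3 and 4 alone, which were adjusted as 1 set, the differences of the classical genes and Cd74 were similar in size and had wider intervals. They were 0.71 (0.46 to 0.97) for H2-Aa, 0.69 (0.42 to 0.97) for H2-Ab1, 0.87 (0.55 to 1.19) for H2-Eb1 and 0.95 (0.48 to 1.42) for Cd74. No gene passed the limma adjustment with 2 libraries per group: 0 were called, and 566 of 8801 genes, 6.43%, had an unadjusted p under 0.05, among them 5 of the 10 members.

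Proportions between the members were compared as differences of log2(TPM + 1) within a library, as a description. The alpha and beta chains of I-A kept 1 proportion: H2-Aa exceeded H2-Ab1 by 1.66 ± 0.026 in AeEM and 1.68 ± 0.032 in AeMM (SD, n = 4 each). Under quantile normalization the difference between these proportions was -0.24, against -0.02 on the values as deposited. H2-Eb1 was below H2-Ab1 by a smaller margin in AeEM, at -0.41 ± 0.056, than in AeMM, at -0.62 ± 0.040, and the libraries of the groups did not overlap. Cd74 exceeded H2-Ab1 by 1.54 ± 0.20 and 1.29 ± 0.17, with overlap. H2-DMa relative to H2-Ab1 was -3.97 ± 0.21 in AeEM and -3.67 ± 0.14 in AeMM, and H2-Oa relative to H2-DMa was -2.81 ± 0.98 and -4.86 ± 0.57. These pairs overlapped between the groups.

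The spread among libraries of one group was also shared by some members and not by others. Over the 8 deviations from the group means, Pearson's r was 0.96 between H2-Aa and H2-Ab1, 0.89 between H2-Ab1 and H2-Eb1 and 0.83 between H2-Aa and H2-Eb1. H2-DMa moved with H2-Oa (r = 0.90), and H2-DMb1 opposed H2-DMb2 (r = -0.78). Cd74 was unrelated to the classical genes by this measure, at -0.12 to 0.03. These r values are descriptions, since the libraries share the set adjustment and replicate 1 and 2 libraries of the 2 groups mirror each other.

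By likeness of level across the 8 libraries to the mean of H2-Aa, H2-Ab1, H2-Eb1 and Cd74, the closest other genes were Gm2a (Pearson's r = 0.989), Traf1 (0.988), Mphosph6 (0.985), Scamp3 (0.982), Plp2 (0.980), Ifi30 (0.979), Ccnd3 (0.976) and Mgl2 (0.976). Of the 8208 genes compared, 1.45% had r above 0.9. The reference mean is itself apart between the groups, so a high r can come from a gene's own AeEM and AeMM difference. Shared regulation was not tested. Traf1 had a mean of 1.66 in AeEM and 0.76 in AeMM. It was under 1 TPM in every AeMM library and met the filter only through AeEM, so its place in this order adds no support. Gm2a, a lysosomal lipid-binding cofactor, had a mean of 6.81 in AeEM and 6.24 in AeMM. Mgl2, a C-type lectin of macrophages and dendritic cells, had means of 5.88 and 4.22, and Plp2 had means of 4.98 and 4.14.

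The class II region of chromosome 17 holds 8 of the members within 224 kb, from chr17:34092340 at H2-Oa to chr17:34316674 at H2-Eb1, among genes of other pathways. Between them lie Psmb8 and Psmb9, subunits of the immunoproteasome, Tap1 and Tap2, which carry peptides to class I molecules, and Brd2, a chromatin reader. These 5 tested neighbours had differences of -0.0018 to 0.27, and 0 of 5 passed in limma. Psmb8 was at 8.80 in both groups. The members on either side, H2-DMb1 and H2-Ob, are nearer to the Psmb and Tap genes than to H2-Eb1.

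**Figure D4:**
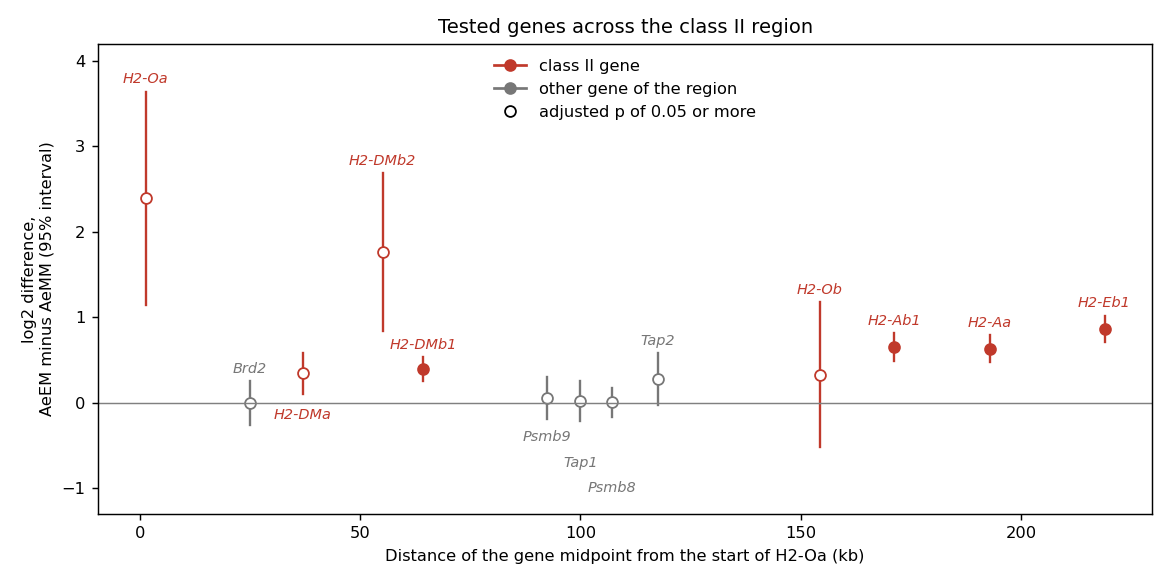
Difference in log2(TPM + 1), AeEM minus AeMM, with its 95% interval for the 13 tested genes of the class II region, against the distance of the gene midpoint from the start of H2-Oa in kb. Class II genes lie above 0, with the interval of H2-Ob crossing it, and the 5 other genes lie between -0.0018 and 0.27.

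The factors that bind class II promoters did not pass the test: 0 of 7 tested genes were higher or lower in limma, 1 had an unadjusted p under 0.05, and their median difference was 0.02. Over all 8801 tested genes, 1587, or 18.0%, had an unadjusted p under 0.05, the background for this and the following lists. Rfx5 was at 2.53 in AeEM and 2.16 in AeMM, Rfxank at 2.26 and 1.79, and Rfxap at 3.42 and 3.0, and the NF-Y subunit genes Nfya, Nfyb and Nfyc had differences of -0.15, 0.01 and 0.02. Among regulators of Ciita, 0 of 14 tested genes passed and 2 had an unadjusted p under 0.05, with a median difference of 0.0012. Spi1, a myeloid factor, was at 4.44 in AeEM and 4.03 in AeMM.

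Of 15 tested genes that respond to interferon gamma, 0 passed in limma and 3 had an unadjusted p under 0.05. Their median difference was -0.17, with a range of -1.32 for the chemokine gene Cxcl9 to 0.26 for Gbp4. The list includes Psmb8, Psmb9 and Tap1 of the class II region. The class II members had a median of 0.64, and the difference between the lists was not tested.

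Of 12 endosomal antigen processing genes, 1 was higher in AeEM and 4 had an unadjusted p under 0.05. It was Ifi30, which encodes the thiol reductase that unfolds antigens, at 10.97 ± 0.045 and 10.67 ± 0.045 (SD, n = 4 each), a difference of 0.30 (limma adjusted p = 0.0129, and 0.199 in the set model). Ctss, the cathepsin that trims Cd74, had a difference of 0.08, Ctsl one of 0.24 and Lgmn one of 0.05. Of 7 genes for class II turnover and surface display, 0 passed in limma and 2 had an unadjusted p under 0.05. Cd81 had the largest difference, 0.39, and Cd83, which opposes class II degradation, had 0.12. Of the surface partners of Cd74, 0 of 4 passed in limma and 0 had an unadjusted p under 0.05, and its ligand Mif was at 9.84 in AeEM and 9.83 in AeMM.

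**Figure D5:**
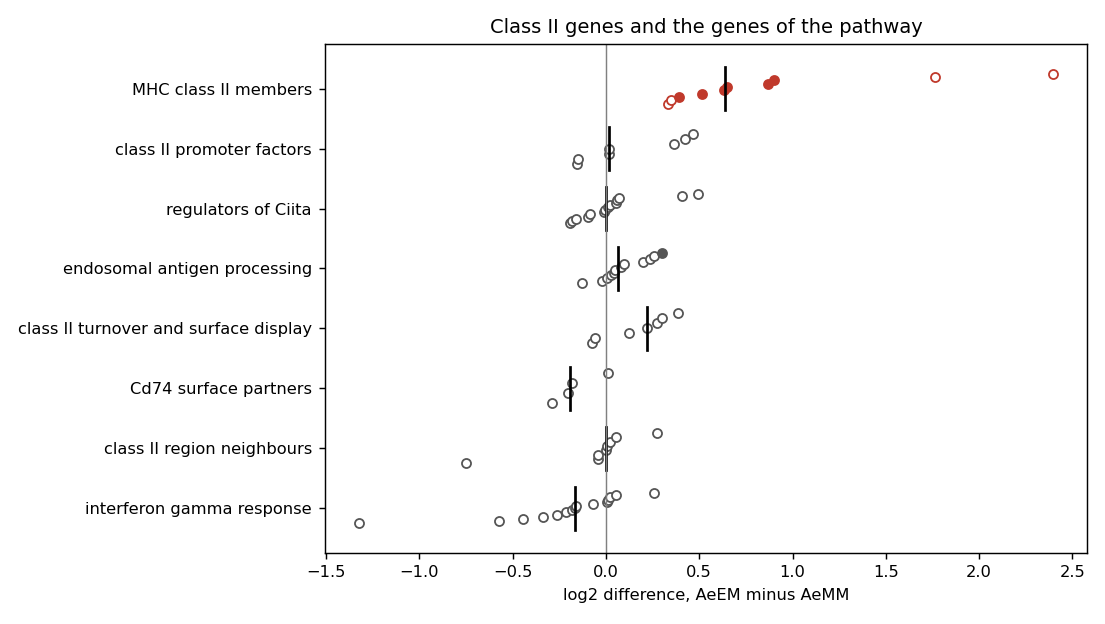
Difference in log2(TPM + 1), AeEM minus AeMM, for the members and for the tested genes of 7 related lists; each point is a gene, filled where the unpaired limma adjusted p was under 0.05, and the vertical lines are medians. Of the 7 related lists, 1 holds a filled point, Ifi30 of endosomal antigen processing.

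Macrophage markers were abundant in both groups: 8 of 8 were tested, their summed level was 75229 to 83497 TPM in AeEM and 76080 to 89657 TPM in AeMM, and 0 passed in limma (4 had an unadjusted p under 0.05). Adgre1 was at 4.17 in AeEM and 4.32 in AeMM, and Csf1r at 7.38 and 7.66, while C1qa was at 12.69 and 12.29 and Cd68 at 11.89 and 11.76. Most of the sum was Lyz2, with up to 81312 TPM in a library. Dendritic cells and B cells also make class II, and their markers were examined beside the members. Of 12 dendritic cell markers, 4 were tested, 4 had an unadjusted p under 0.05 and 3 were higher in AeEM. Cd209a, a C-type lectin, was at 5.98 and 2.33 (difference 3.65, limma adjusted p = 0.00294, and 0.0326 in the set model), the integrin gene Itgax at 2.67 and 1.62 (0.0109, and 0.115 in the set model) and the transcription factor gene Batf3 at 3.26 and 2.72 (0.0245, and 0.268 in the set model). The remaining tested marker, Ccr7, a chemokine receptor gene, was at 2.01 and 0.53 (difference 1.48, limma adjusted p = 0.145). Its AeMM mean was under 1 TPM, so it met the filter only through AeEM, and its unadjusted p adds no support. The summed level of the 12 was 53.5 to 116 TPM in AeEM and 12.7 to 20.3 TPM in AeMM, and Cd209a, with up to 96.1 TPM in a library, was its largest part in AeEM. The other 8, Zbtb46, Flt3, Clec9a, Xcr1, Fscn1, Siglech, Dpp4 and Kit, had means under 1 TPM, and the defining markers Zbtb46 and Flt3 reached at most 0.784 and 0.573 TPM in any library. On the log2 scale Zbtb46 was at 0.67 in AeEM and 0.30 in AeMM, and Flt3 at 0.41 and 0.20, with no test because of the filter. Xcr1, Fscn1, Dpp4 and Kit also had higher means in AeEM. Clec9a, at 0.63 in AeEM and 0.73 in AeMM, and Siglech, at 0.05 and 0.11, had lower means in AeEM. Clec9a reached 2.03 TPM in AeMM replicate 4. The part of these cells in the class II differences was not tested.

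Of 12 B cell markers, 8 were tested and 0 passed in limma, and 0 had an unadjusted p under 0.05. Their summed level was 273 to 414 TPM in AeEM and 258 to 479 TPM in AeMM, most of it from Igkc, Ighm and Cd79b, which reached up to 296, 104 and 80.7 TPM, while Cd79a and Ms4a1 reached at most 8.21 and 1.92 TPM. Cd79b was at 5.63 in AeEM and 6.0 in AeMM. Among the other 4, Pax5 and Ebf1 were near 0 in every library. Of 8 monocyte markers, 7 were tested and 3 were lower in AeEM: S100a8 fell by 1.03, Ly6c2 by 1.55 and Chil3 by 2.16 on the log2 scale (limma adjusted p = 0.00437, 0.0478 and 0.0434), and 0 passed in the set model (0.0605, 0.251 and 0.203). T cell markers summed to 2.71 to 5.53 TPM in AeEM and 4.48 to 10.6 TPM in AeMM, and epithelial and mesothelial markers of the ID8 line and its surroundings to 3.91 to 6.65 TPM and 4.54 to 6.34 TPM. The part of these cells in the class II differences was not tested either.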

How the data were processed

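Bulk RNA-seq was analysed for 4 AeEM and 4 AeMM libraries. The authors prepared the libraries by Smart-seq2, used fastp to clean the reads, STAR 2.7.2a to align them to mm10 and featureCounts of Subread to count them. The deposited table is described as TPM and in fact holds log2(TPM + 1) values, which, judged from the values, had been adjusted in 3 sets of libraries before deposit. How this was done, the annotation and the counting strand were not given in the sources used here. Unpaired limma is among the tests the paper lists as a whole, without being tied to these libraries. The planned test for TPM was therefore run on the values as deposited. TPM was recovered as 2 to the power of the value minus 1, with negative results set to 0. No read counts were used, so depth is unknown and no counting interval is given. Sums of TPM were 958862 to 974303 and 8498 to 8753 genes reached 1 TPM per library. Every value column was matched to a sample.

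AeEM and AeMM were compared with limma 3.58.1 under R 4.3.3 (unpaired, mean-variance trend, Benjamini-Hochberg adjustment over all 8801 genes that averaged 1 TPM or more), and again in a set model that also fitted the 3 sets. Two-sided exact permutation tests of single members used scipy 1.17.1. The fit was tested on simulated data. The genes named were the 10 members, the 8 genes most like the mean of the 3 classical genes and Cd74 (predicted Gm and Rik genes left out), from each list up to 4 genes past the threshold in each direction, and the defining markers Adgre1, Csf1r, Zbtb46, Flt3, Cd79a and Ms4a1; some items are not reported here. Other genes of the lists were named after their values were seen. The members and lists were chosen with earlier results of these data known. Positions came from GENCODE M21 on mm10 and promoter sequences from RefSeq on GRCm38.p6. The libraries came from 4 mice, but the replicate numbers are not stated to mark the animals, and the set adjustment makes equally numbered libraries of replicates 1 and 2 deviate in opposite directions, so the replicate block was run only as an alternative. Others were the pseudocount, the filter, the scaling, the trend, library weights and leaving out each library. A few were added after seeing the data.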

Additional observations from a re-analysis of the deposited data

Results flagged for a closer look

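Of 20 groups of 4 libraries (10 members in AeEM and in AeMM), 2 held a library set apart from the rest by Dixon's test at the 95% level, where chance gives about 1 in 20. H2-Aa in AeMM replicate 1 was at 12.28 log2(TPM + 1), above the other AeMM libraries at 12.04 to 12.06 and below every AeEM library. H2-Oa in AeMM replicate 3 was at 2.79, above the other AeMM libraries at 1.53 to 1.71 and above AeEM replicate 4 at 2.62. H2-DMb2 in AeMM replicate 4, at 4.47, and H2-Ob in AeEM replicate 3, at 1.68, fell just short of the critical value, with gaps of 0.819 and 0.806 of the range of their groups.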

How the results depend on the processing

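The 212 calls over all genes became 136 without the mean-variance trend, 1376 with library weights (39.2% of them higher in AeEM, against 51.9%), 14 in the set model, 5 with the replicate block and 0 with replicates 3 and 4 only (566 at an unadjusted p under 0.05 in limma). They were 73 to 203 when 1 library was left out, lowest without AeEM replicate 1 (73), AeEM replicate 2 (77), AeMM replicate 1 (77), AeMM replicate 2 (78) and AeMM replicate 4 (131). The 6 calls among the class II members became 10 with library weights, 2 in the set model, 1 with the block, 0 with replicates 3 and 4 only, and 4 to 7 with 1 library left out. They were 5 to 7 under the other planned settings. H2-Ob reversed to -0.55 with replicates 3 and 4 only, and the cause was not tested; it was 0.94 with library weights (limma adjusted p = 0.0364). With replicates 3 and 4 only, H2-DMa was 0.22 and H2-DMb2 1.06. Of the fits chosen after seeing the data, the set model with quantile normalization gave 36 calls and 2 members, the set model with 1 library left out gave 0 to 8 calls (0 without AeEM replicate 3, where 923 had an unadjusted p under 0.05 in limma) and 0 to 2 members, and the set model with negative TPM kept gave 19 calls and 4 members, H2-Aa and H2-Ab1 then passing at 0.0496.

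With the replicate block, which takes the shared numbers as pairs, 3 genes were higher and 2 lower, and H2-Eb1 was the member that passed (limma adjusted p = 0.0442). H2-Aa and H2-Ab1 were at 0.0754, Cd74 at 0.0696, H2-DMb1 at 0.226 and Ciita at 0.304. With 4 mice for 8 libraries the groups would share animals, but the numbers are not stated to mark them, and correlated deviations cannot show it here, because the set adjustment fixes their sign in replicates 1 and 2. The 4 libraries per group and an unknown depth limit the precision, most of all for H2-Oa, H2-Ob and H2-DMb2.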
